A study of Mus musculus with 6 samples.

Results

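The 9 genes described here mark B cells and antibody-secreting plasma cells: Cr2, Ms4a1, Cd79a and Cd79b, whose proteins sit on the B cell surface, and Ighm, Igkc, Iglc2, Igha and Jchain, which encode antibody chains and the chain that joins them. They were named as a list and found in the deposited count table by gene identifier, matched to symbols with the GENCODE M21 annotation; all 9 were present among 55487 genes. The RNA came from Ly6G-positive neutrophils sorted by flow cytometry from perfused, minced and liberase-digested mouse lung. The mutant group (n = 3 libraries) carried Mrp8-Cre;TGFbR2-fl/fl, and the wt group (n = 3) was TGFbR2-fl/fl without Cre, from the same litters. Both groups thus carried the floxed receptor allele Tgfbr2tm1Karl, which came from a B6;129 strain. Mutants alone carried the Cre and EGFP transgene Tg(S100A8-cre,-EGFP)1Ilw, from a B6.Cg strain, under the S100A8 (Mrp8) promoter, which is active in neutrophils and other myeloid cells. Age was not given in the sources used here, and the labels do not tie a library to a single mouse, so each p-value reflects spread among these 6 libraries, which may be technical.

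B cells are lymphocytes that carry an antibody in their membrane as an antigen receptor, with Cd79a and Cd79b as the paired signalling chains that pass its signal inward. Plasma cells descend from them and secrete antibody; those that make IgA, the main antibody of mucosal surfaces, attach the joining chain (Jchain) so that it can be carried across epithelia. An antibody chain is spliced from a variable (V) segment, which differs between B cell clones, and a constant gene, which sets its class. TGF-beta signalling within B cells is known in mice to direct the switch to IgA.

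Library totals ran from 30403494 to 35906780 counts, and levels are given as CPM, counts divided by the library size after scaling by trimmed mean of M values (TMM), at which 3 counts, the upper limit that a count of 0 allows, equal 0.0828 to 0.102 CPM. Each library is named by its group and a replicate number that follows accession order. In the targeted gene, Tgfbr2, the gene-level count averaged 187 ± 15.4 CPM across mutants and 191 ± 8.73 CPM across wt (SD, n = 3 each), which does not check the deletion, since reads outside the floxed exons are counted too. Neutrophil markers summed to 27233 to 36288 CPM in mutants and 32877 to 34862 CPM in wt; Ly6g itself, used for the sort, was at 14.4 to 35.2 CPM over the 6 libraries. Most of that sum came from Il1b and Csf3r. Of its 12 genes, 0 were called and 2 were lower in mutants at an unadjusted p below 0.05, against 3.22% of all tested genes. Both were also without overlap between the groups, as were 6.21% of all tested genes with mutants lower. Cxcr2, a chemokine receptor, averaged 2022 ± 99.1 CPM in mutants, against 2565 ± 80.7 CPM in wt (edgeR unadjusted p = 0.0012, adjusted p = 0.294). S100a8, a calcium-binding protein, averaged 1148 ± 309.9 CPM in mutants, against 1707 ± 36.8 CPM in wt (edgeR unadjusted p = 0.00427, adjusted p = 0.405).

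The antibody constant gene Ighm, the heavy chain of IgM, dominated the 9 genes. Divided by exon length, its mean level over the 6 libraries was 195 ± 32.6 CPM per kb (SD, n = 6). Igkc, the kappa light chain constant gene, followed at 31.7 ± 12.1 CPM per kb, and the ranges of these 2 genes did not overlap. Cd79b and Cd79a, at 6.58 ± 1.61 and 6.06 ± 2.03 CPM per kb, overlapped in their ranges and lay below every Igkc value. Next in order of mean came Igha, the IgA heavy chain, at 2.75 ± 3.76, Iglc2, a lambda light chain constant gene, at 2.36 ± 1.01, Ms4a1, which encodes CD20, at 1.40 ± 0.499, and Jchain at 1.07 ± 1.13 CPM per kb, each range overlapping the next. Cr2, the complement receptor CD21, was lowest at 0.371 ± 0.216 CPM per kb, and its range overlapped that of Ms4a1. Igha spanned 0.0207 to 8.98 CPM per kb, so its place in the order depended on the library.

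**Figure D1:**
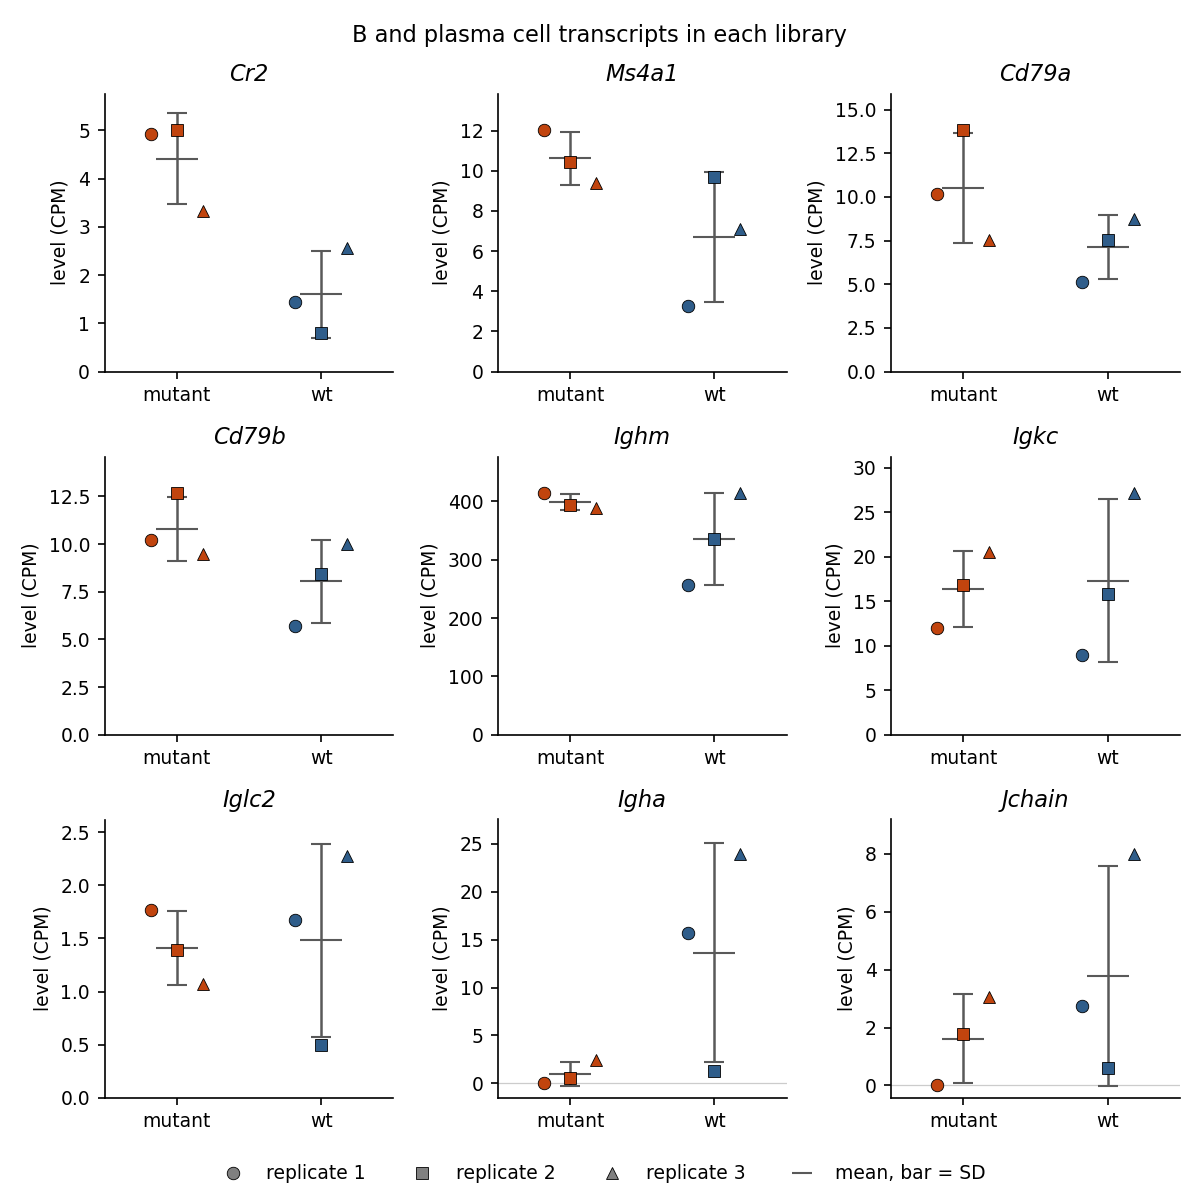
Level in CPM (TMM-scaled) of each of the 9 genes, with mutant libraries on the left and wt libraries on the right; points are libraries, marked by replicate number, and bars show mean and SD. Cr2 is the gene whose mutant values all lie above its wt values, and Igha and Jchain show the widest spread.

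All 9 genes were abundant enough to be tested. None passed edgeR's quasi-likelihood test between mutant and wt at a Benjamini-Hochberg adjusted p below 0.05; their adjusted p values ran from 0.469 to 0.998. Over all 15774 tested genes the same test called 1 gene (0.00634%) higher and 0 (0%) lower in mutants. At an unadjusted p below 0.05, Cr2 was the 1 member higher in mutants and Igha the 1 member lower, against 554 (3.51%) and 508 (3.22%) of all tested genes. DESeq2's Wald test called 0 of the 9, beside 81 (0.514%) higher and 74 (0.469%) lower among all genes, and limma-voom called 0 of the 9, beside 0.00634% of all genes. The groups did not overlap in 1 of the 9 genes, Cr2, against 6.82% of all genes not overlapping with mutants higher, 6.21% with mutants lower and 13.0% in either direction. The median log2 fold change was 0.25 over the 9 genes, against 0.01 over all tested genes. All 4 B cell surface genes were positive (median 0.61), whereas 50.7% of all tested genes were, and 1 of the 5 antibody genes was positive (median -0.08). Without wt 1 the surface median was 0.36. With 1 library left out at a time, Ms4a1 ran from 0.34 (without wt 1) to 1.03 (without wt 2), Cd79a from 0.31 (without mutant 2) to 0.75, Cd79b from 0.23 (without wt 1) to 0.61 and Ighm from 0.09 (without wt 1) to 0.43.

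**Figure D2:**
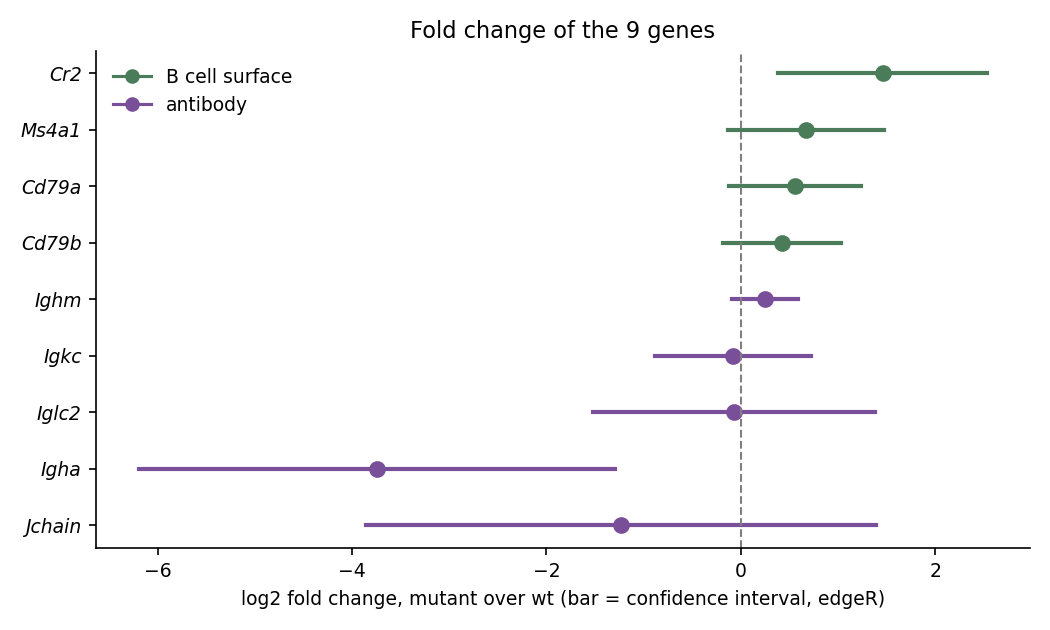
log2 fold change, mutant over wt, of the 9 genes on the x axis, with 95% intervals from edgeR; genes run down the y axis, the B cell surface genes above the antibody genes. Intervals of Cr2 (0.39 to 2.54) and Igha (-6.20 to -1.29) lie on one side of 0, and the other 7 cross it.

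Cr2 (ENSMUSG00000026616.15; chr1:195136811-195176716, minus strand, GRCm38) encodes a receptor for fragments of complement C3 that lowers the threshold of B cell activation and is also found on follicular dendritic cells. Its level was 4.92, 5.01 and 3.32 CPM in mutant replicates 1 to 3, against 1.44, 0.792 and 2.56 CPM in wt replicates 1 to 3. Every mutant value exceeded every wt value, with mutant 3 and wt 3 closest to each other. The means were 4.41 ± 0.95 CPM across mutants and 1.60 ± 0.894 CPM across wt (SD, n = 3 each), a ratio of 2.76. The edgeR log2 fold change was 1.46 ± 0.48 (SE; unadjusted p = 0.0126, adjusted p = 0.547), and leaving out 1 library at a time gave 1.14 (without wt 2) to 1.98 (without wt 3). The raw counts were low, 178, 148 and 108 in mutants and 44, 24 and 82 in wt. Relative to Cd79a counts, Cr2 stood at 0.484, 0.362 and 0.439 in mutants and at 0.280, 0.105 and 0.294 in wt, so it was also higher per Cd79a count in each mutant library. In bulk RNA, fewer cells of a type and less RNA per cell cannot be told apart, here and for each gene that follows.

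Promoter sequences from RefSeq (GRCm38.p6), from 250 bases before to 50 after the start, were available for Cr2, Cd79a and Jchain, 3 of the 9 genes. These are shown as the members with a window in that table, 2 surface genes and 1 antibody gene. Capitals mark 2 motifs associated with lymphocyte promoters, searched on both strands: the E box CAGGTG, which reads CACCTG on the opposite strand, and the ETS core GGAAGT, which reads ACTTCC there.
Cr2, chr1:195176670-195176969, minus strand: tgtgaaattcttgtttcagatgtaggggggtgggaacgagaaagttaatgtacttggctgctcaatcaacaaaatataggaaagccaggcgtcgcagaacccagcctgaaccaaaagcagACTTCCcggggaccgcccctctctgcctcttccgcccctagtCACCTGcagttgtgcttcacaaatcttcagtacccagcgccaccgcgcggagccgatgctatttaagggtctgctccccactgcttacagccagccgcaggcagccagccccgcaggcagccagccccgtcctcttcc
Cd79a, chr7:24897247-24897546, plus strand: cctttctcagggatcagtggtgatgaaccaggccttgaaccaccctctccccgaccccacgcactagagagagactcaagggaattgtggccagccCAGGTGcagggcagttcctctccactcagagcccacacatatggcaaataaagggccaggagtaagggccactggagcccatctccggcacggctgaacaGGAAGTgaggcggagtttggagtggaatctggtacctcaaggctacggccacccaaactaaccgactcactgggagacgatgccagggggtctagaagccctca
Jchain, chr5:88527848-88528147, minus strand: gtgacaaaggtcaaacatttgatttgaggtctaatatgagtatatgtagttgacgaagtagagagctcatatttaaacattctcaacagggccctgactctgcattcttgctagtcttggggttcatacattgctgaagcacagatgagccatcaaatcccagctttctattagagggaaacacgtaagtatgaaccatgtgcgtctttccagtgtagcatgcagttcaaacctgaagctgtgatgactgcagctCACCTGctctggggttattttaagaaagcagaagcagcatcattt
Each of the 3 windows held 1 E box, which 20.2% of 32851 promoters of the same length held. Cr2 and Cd79a each held 1 ETS core, and Jchain held 0, against 23.8% of all promoters. The octamer ATGCAAAT (1.74% of promoters) and the exact palindromic form of the EBF motif (0.904%) were in 0 of the 3 windows. EBF sites that depart from the exact palindrome were not searched for. The absence of a match therefore does not show that a window, such as that of Cd79a, lacks an EBF site. None of the motifs searched for overlapped another in the windows shown, and a match is a description of letters only.

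Ms4a1 (ENSMUSG00000024673.9; chr19:11249675-11266241, minus strand) encodes CD20, a membrane protein of mature B cells that plasma cells lose. It stood at 12.0, 10.4 and 9.40 CPM in mutants, against 3.28, 9.70 and 7.09 CPM in wt. wt 1 was far below the rest, and wt 2 lay above mutant 3, so the groups overlapped. Means were 10.6 ± 1.33 CPM across mutants and 6.69 ± 3.23 CPM across wt (SD, n = 3 each), with a log2 fold change of 0.67 ± 0.36 (SE; edgeR adjusted p = 0.808). The annotation places an antisense gene over Ms4a1, which had 0 counts in the 6 libraries.

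Cd79a (ENSMUSG00000003379.7; chr7:24897381-24902197, plus strand) encodes the first signalling chain of the B cell receptor. Its level was 10.2, 13.8 and 7.56 CPM in mutants, against 5.15, 7.56 and 8.71 CPM in wt. Mutant 2 was highest and wt 1 lowest, while mutant 3 lay within the wt range. Averages were 10.5 ± 3.16 CPM across mutants and 7.14 ± 1.82 CPM across wt (SD, n = 3 each), and the log2 fold change was 0.56 ± 0.30 (SE; edgeR adjusted p = 0.809).

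Cd79b (ENSMUSG00000040592.11; chr11:106311341-106314762, minus strand) encodes the partner chain. It had 10.2, 12.7 and 9.46 CPM in mutants, against 5.68, 8.45 and 9.99 CPM in wt. The order of libraries was that of Cd79a, in which mutant 3 and wt 2 were nearly tied. Cd79b was highest in mutant 2 and lowest in wt 1, and the groups overlapped. Group means were 10.8 ± 1.69 CPM across mutants and 8.04 ± 2.19 CPM across wt (SD, n = 3 each), with a log2 fold change of 0.42 ± 0.27 (SE; edgeR adjusted p = 0.873). Per exon base, Cd79a was 0.784 to 1.07 times Cd79b over the 6 libraries, and the count ratio varied by a coefficient of variation of 11.04%. The summed level of the 4 surface genes was 37.3, 42.0 and 29.7 CPM in mutants, against 15.6, 26.5 and 28.4 CPM in wt. These sums did not overlap, with mutant 3 just above wt 3, and their means of 36.4 ± 6.17 CPM across mutants and 23.5 ± 6.91 CPM across wt had a ratio of 1.55.

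Ighm (ENSMUSG00000076617.9; chr12:113418558-113422730, minus strand) encodes the IgM heavy chain, in its membrane and secreted forms, which the gene-level counts do not separate. Its level was 415, 394 and 388 CPM in mutants, against 256, 336 and 414 CPM in wt. The 3 mutant libraries were close together, with a coefficient of variation of 3.51%, while wt libraries varied by 23.5%, from wt 1 as the lowest to wt 3 at the mutant level. The means of 399 ± 14.0 CPM across mutants and 335 ± 78.7 CPM across wt (SD, n = 3 each) gave a log2 fold change of 0.25 ± 0.15 (SE; edgeR adjusted p = 0.852). The difference in spread was not tested.

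Igkc (ENSMUSG00000076609.2; chr6:70726435-70726966, plus strand) is the single kappa constant gene, which pairs with heavy chains of any class. It stood at 12.0, 16.8 and 20.5 CPM in mutants, against 8.99, 15.8 and 27.2 CPM in wt. Both the highest and the lowest library were wt, so the mutant values lay inside the wt range. Its means were 16.4 ± 4.27 CPM across mutants and 17.3 ± 9.18 CPM across wt (SD, n = 3 each), with a log2 fold change of -0.08 ± 0.36 (SE; edgeR adjusted p = 0.997). This sign turned without mutant 1 (0.11) and without wt 3 (0.40). Another annotated RNA on the same strand overlaps Igkc and had 50 counts in all, 1.55% of those of Igkc. Ighm exceeded Igkc per exon base in every library, by 4.30 times in wt 3 up to 9.76 times in mutant 1. In count terms, the ratio of Ighm to Cd79a was 28.5 to 51.3, with a coefficient of variation of 19.1%.

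Iglc2 (ENSMUSG00000076937.3; chr16:19198396-19200351, minus strand) is one of several lambda constant genes. Its coding bases are nearly those of Iglc3, so a read that covers none of the differing bases cannot be assigned to one of them. Both are shown 5′ to 3′ from GENCODE M21 on GRCm38, with capitals at the 11 bases that differ.
Iglc2, chr16:19198553-19198852, minus strand: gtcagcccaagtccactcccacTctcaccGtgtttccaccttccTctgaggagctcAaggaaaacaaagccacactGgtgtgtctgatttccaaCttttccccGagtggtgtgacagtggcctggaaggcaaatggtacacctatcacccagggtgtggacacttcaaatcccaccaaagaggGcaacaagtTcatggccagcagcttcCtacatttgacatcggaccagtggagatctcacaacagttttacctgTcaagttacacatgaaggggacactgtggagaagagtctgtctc
Iglc3, chr16:19065382-19065681, minus strand: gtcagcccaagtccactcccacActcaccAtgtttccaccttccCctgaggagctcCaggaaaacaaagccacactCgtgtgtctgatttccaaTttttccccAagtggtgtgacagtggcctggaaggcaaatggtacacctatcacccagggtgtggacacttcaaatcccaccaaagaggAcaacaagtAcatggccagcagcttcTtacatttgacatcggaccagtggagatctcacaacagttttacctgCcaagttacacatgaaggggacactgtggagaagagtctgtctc
Over the 300 coding bases shown the identity was 96.3%, and the longest identical run was 79 bases, shorter than the 151-cycle reads. Iglc2 had 1.77, 1.39 and 1.08 CPM in mutants, against 1.67, 0.495 and 2.28 CPM in wt. All mutant values lay inside the wt range. Means of 1.41 ± 0.347 CPM across mutants and 1.48 ± 0.907 CPM across wt (SD, n = 3 each) gave a log2 fold change of -0.07 ± 0.65 (SE; edgeR adjusted p = 0.998). The sign turned without mutant 3 (0.09), without wt 1 (0.02) and without wt 3 (0.38). Iglc3 had 23, 24 and 36 counts in mutants and 20, 17 and 82 counts in wt. Together the lambda genes Iglc1, Iglc2 and Iglc3 held 22.1%, 19.4% and 19.0% of light chain constant counts in mutants, against 23.0%, 9.98% and 20.8% in wt. wt 2 was the low library, with an exact 95% binomial interval of 7.57% to 12.9% that covers counting error only; the intervals of the other 5 libraries lay above it.

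Igha (ENSMUSG00000095079.6; chr12:113254830-113260236, minus strand), the heavy chain of IgA, had the largest fold change of the 9 genes. It had 2, 17 and 79 counts in mutants, against 477, 40 and 767 in wt, or 0.0552, 0.575 and 2.43 CPM in mutants and 15.7, 1.32 and 23.9 CPM in wt. wt 1 and wt 3 were far above all others, but wt 2 lay below mutant 3, so the groups overlapped. The means were 1.02 ± 1.25 CPM across mutants and 13.6 ± 11.4 CPM across wt (SD, n = 3 each), and the wt SD was close to its mean. The edgeR log2 fold change was -3.74 ± 1.10 (SE; unadjusted p = 0.00672, adjusted p = 0.469). Leaving out 1 library at a time gave -5.48 without mutant 3 to -3.06 without wt 3. The 2 counts of mutant 1 have an exact 95% Poisson interval of 0.242 to 7.22 counts.

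With genes of any count kept in place of the filter on low counts, edgeR gave Igha an adjusted p of 0.00593. This was the single alternative in which 1 of the 9 genes passed. That fit took every gene with a count in any library, which 29379 of 55487 genes lacked. It called 41 genes higher and 29 lower in mutants, against 1 and 0 with the filter. The adjusted p of Igha ran from 0.00593 to 0.766 over the 11 alternatives.

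Jchain (ENSMUSG00000067149.6; chr5:88519809-88527891, minus strand) encodes the joining chain that links IgA and IgM units. It had 0, 1.76 and 3.07 CPM in mutants, against 2.76, 0.594 and 7.99 CPM in wt. Mutant 1, with 0 counts, and wt 3, with 256 counts, were the extremes, and the other 4 libraries interleaved. Its means of 1.61 ± 1.54 CPM across mutants and 3.78 ± 3.80 CPM across wt (SD, n = 3 each) gave a log2 fold change of -1.23 ± 1.18 (SE; edgeR adjusted p = 0.941). The value depended on wt 3, without which it was -0.06. Igha counts were 0.327 and 0.790 times Jchain counts in mutants 2 and 3, against 5.68, 2.22 and 3.00 times in wt, while mutant 1 had 2 Igha and 0 Jchain counts. The summed level of the 5 antibody genes without Ighm was 13.8, 20.5 and 27.1 CPM in mutants, against 29.1, 18.2 and 61.4 CPM in wt; with Ighm it was 429, 415 and 415 CPM in mutants, against 285, 354 and 475 CPM in wt.

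Shares of heavy chain constant counts are given by gene, and a count need not come from a transcript with a V segment. Heavy V counts were 757 to 1113 in mutants and 645 to 1318 in wt. Heavy constant counts were 12153 to 15813 in mutants and 8442 to 14789 in wt. Kappa V counts were 247 to 418 in mutants and 243 to 548 in wt, against 434 to 667 and 274 to 870 for Igkc. The shares are thus not a measure of class use by cells. Ighm took 94.99%, 95.87% and 95.54% of heavy constant counts in mutants, against 92.5%, 96.4% and 89.6% in wt. Ighd, the IgD heavy chain that naive B cells make beside IgM, had 791, 468 and 510 counts in mutants, against 155, 343 and 692 in wt, a log2 fold change of 0.49 (edgeR adjusted p = 0.933). Igha held 0.0126%, 0.140% and 0.598% in mutants, against 5.65%, 0.379% and 5.19% in wt. Igha was thus above 5% of heavy constant counts in wt 1 and wt 3 and below 0.6% in the other 4 libraries. Ighg2c, an IgG heavy chain, had 17 counts in mutant 2 and 80 in wt 3 and 0 in the other 4 libraries. Ighg1, Ighg2b, Ighg3 and Ighe had 0 counts in all 6 libraries.

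The V segments were counted by gene, and these counts are not tied to a constant gene or a cell. Heavy V genes with a count numbered 91 of 183 in the table, 13 of them counted in every library and 27 in 1 library; of 160 kappa V genes, 81 had a count, 7 in every library and 21 in 1. The 5 heavy V genes with the most counts in all, Ighv1-64, Ighv1-52, Ighv8-12, Ighv1-69 and Ighv1-53, lie within 503 kb of chromosome 12. They took 54.5%, 48.0% and 48.7% of heavy V counts in mutants, against 42.6%, 63.1% and 29.4% in wt. Ighv1-64, for example, had 104, 139 and 91 counts in mutants, against 73, 140 and 123 in wt.

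Other V genes were concentrated in 1 library. Ighv1-75 had 16, 2 and 2 counts in mutants, against 0, 0 and 252 in wt, where it was 19.1% of the heavy V counts of wt 3 (exact 95% interval 17.0% to 21.3%). Ighv7-3 had 6, 2 and 14 counts in mutants, against 49, 0 and 182 in wt (log2 fold change -3.43; edgeR unadjusted p = 0.0366, adjusted p = 0.690). The leading heavy V gene of wt 1 was Ighv9-3, with 76 counts there and 0 to 10 in each other library. Both wt libraries with high Igha were thus led by a heavy V gene that was scarce in the rest. In wt 1 the lead was narrow, with 73 counts for Ighv1-64. Ighv1-64 led mutant 2, wt 2 and, narrowly, mutant 3, with 91 counts there against 89 for Ighv1-52. Ighv1-52 led mutant 1, with 166 counts against 156 for Ighv8-12. Among kappa V genes, Igkv5-48 held 16.4% of wt 3, Igkv17-127 18.9% of wt 1 and Igkv4-59 17.2% of mutant 3, while the leading gene of mutant 1, mutant 2 and wt 2 held 9.16%, 9.72% and 8.26%. Iglv1 led the lambda V genes in 5 libraries and Iglv2 in wt 1. Of the 395 antibody gene entries in the table, 202 had a count and 36 were tested, and edgeR called 0 of them. At an unadjusted p below 0.05, 0 were higher and 2 lower (Igha and Ighv7-3), against 3.51% and 3.22% of all tested genes. The median log2 fold change of the 36 was 0.19.

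**Figure D3:**
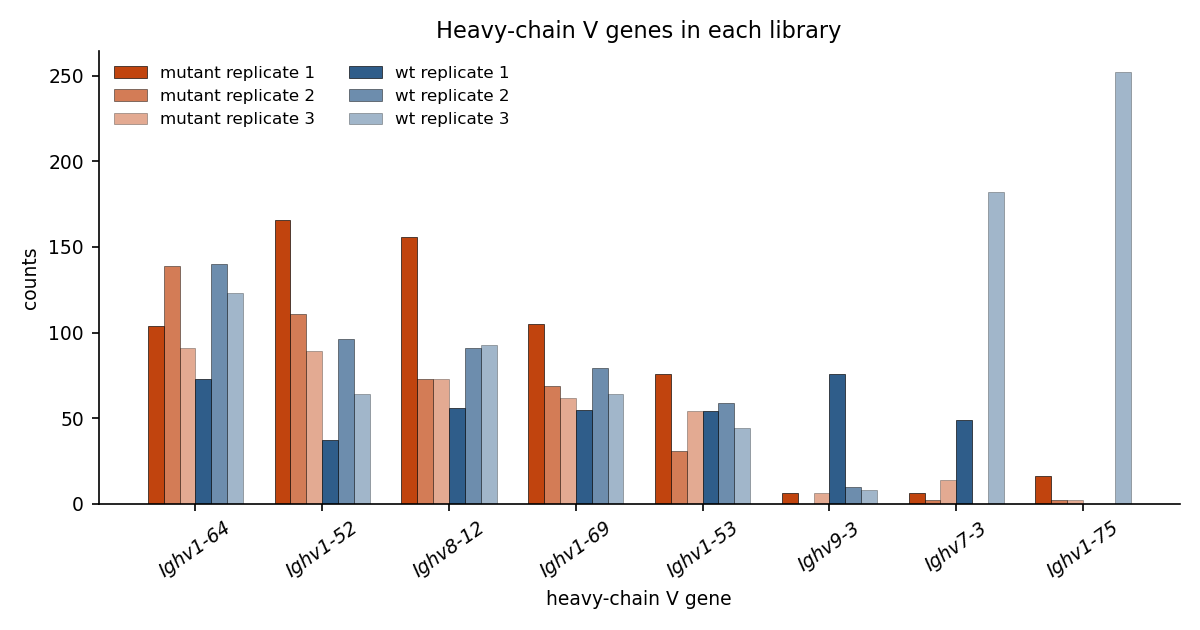
Counts (y axis) of 8 heavy chain V genes (x axis) in each of the 6 libraries, with mutant bars left of wt bars; the first 5 genes are the most abundant over all libraries and the last 3 those singled out in 1 or 2 libraries. The first 5 are counted in every library, and Ighv1-75 and Ighv7-3 reach 252 and 182 counts in wt replicate 3.

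Co-variation of the 9 genes was measured over the 6 libraries as Pearson and Spearman correlations of log2(CPM + 0.1), with exact two-sided permutation p values adjusted over the 36 pairs. No pair passed an adjusted p below 0.05, and 4 pairs had an unadjusted Pearson p below 0.05. With 6 libraries a permutation p has a floor, and after adjustment over 36 pairs even a rho of 1.00 gave 0.1. The absence of passing pairs therefore says little about co-variation. Cd79a and Cd79b had r = 0.96 (exact permutation p = 0.00694, adjusted 0.250) and rho = 1.00 (p = 0.00278, adjusted 0.1), and r = 0.79 without the 2 libraries farthest from the median of Cd79a. The 2 chains thus ranked the libraries identically, though Cd79a was nearly tied between mutant 3 (7.559 CPM) and wt 2 (7.555 CPM). Cd79b and Ighm had r = 0.91 (exact permutation p = 0.0181, adjusted 0.283) and rho = 0.83 (p = 0.0583, adjusted 0.300), and 0.99 without the 2 farthest libraries. Igha and Jchain had r = 0.86 (exact permutation p = 0.0236, adjusted 0.283) and rho = 0.89 (p = 0.0333, adjusted 0.240), and 0.48 without the 2 farthest libraries, on which the relation rests. Ms4a1 and Igha ran opposite, with r = -0.78 (exact permutation p = 0.0417, adjusted 0.375), rho = -0.94 (p = 0.0167, adjusted 0.240) and r = -0.996 without the 2 farthest libraries.

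By group of genes, r was 0.46 to 0.96 over the 6 pairs of surface genes and 0.67 to 0.91 between Ighm and the surface genes. Between surface genes and the antibody genes other than Ighm it was -0.78 to 0.60, with a median of -0.16. Since the libraries form 2 groups, the correlations were repeated on deviations from each group's mean. The 6 surface pairs then had r from -0.19 to 0.93, with a median of 0.52 in place of 0.74, so their co-variation rested in part on the difference between group means. Cr2 was the gene most affected, at -0.19 with Ms4a1, 0.41 with Cd79a and 0.37 with Cd79b, and Ighm with the surface genes ran from 0.43 to 0.86. The highest value on this scale was that of Cr2 and Iglc2, at 0.93, against 0.59 before. Of the 4 pairs above, Cd79a and Cd79b gave 0.93, Igha and Jchain 0.92, Cd79b and Ighm 0.86, and Ms4a1 and Igha -0.60. No pair passed an adjusted p below 0.05 on this scale either, where the same floor on p applies. Within 1 group, 3 libraries are too few for a correlation.

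**Figure D4:**
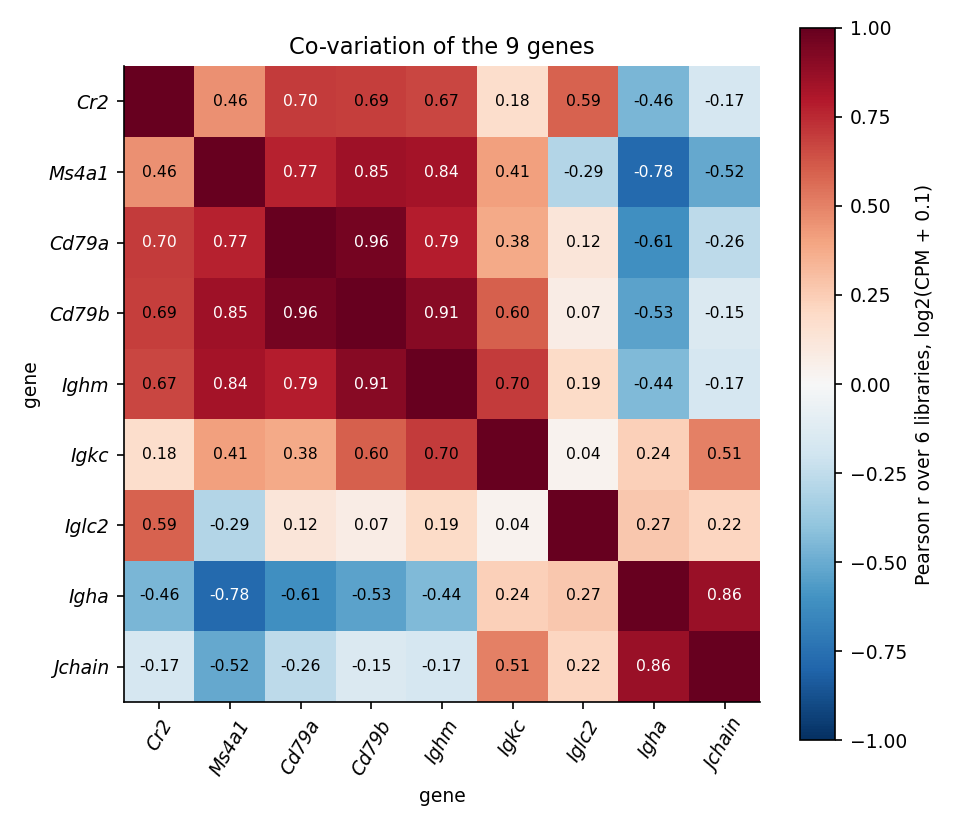
Pearson r over the 6 libraries between each pair of the 9 genes, on log2(CPM + 0.1), coloured from blue (-1) to red (1). The surface genes and Ighm have positive values from 0.46 to 0.96 with each other, and Igha with Jchain has 0.86; on deviations from group means the surface pairs run from -0.19 to 0.93.

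As a description, the genes outside the antibody loci whose levels followed the summed surface genes most closely, among 12813 genes averaging 1 CPM or more, were Rpap1 and Nfxl1 (r = 0.99 each), Ckb, Tefm and Dtymk. For the summed antibody genes they were Zfpl1, Fmnl3, Arrdc1, Bin1 and Tox4, with r from 0.985 to 0.995 over 6 libraries. None of these 10 is in the B cell marker list used here, and each r was picked as the highest among many over only 6 points.

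Other B cell markers were detected beside the 9 genes. Of 16, 15 were tested, 0 passed in either direction, and 13 were positive and 2 negative. The median log2 fold change was 0.35, against 0.01 over all genes. Their summed level was 114, 118 and 103 CPM in mutants, against 64.6, 92.0 and 117 CPM in wt, lowest in wt 1 and overlapping. Bank1, a B cell adaptor, averaged 24.98 ± 6.05 CPM across mutants and 20.2 ± 5.30 CPM across wt (SD, n = 3 each, as for the means that follow), and Fcer2a (CD23) 9.11 ± 0.655 CPM across mutants and 6.43 ± 3.62 CPM across wt. Pax5, the factor that keeps B cell identity, had 0.994, 2.50 and 1.11 CPM in mutants, against 0.0656, 0.594 and 1.72 CPM in wt. Pax5 was lowest in wt 1 like Ms4a1, Cd79a and Cd79b. The 2 negative markers were Cd22 and Pou2af1. Cd22 averaged 7.54 ± 1.52 CPM across mutants and 7.62 ± 4.21 CPM across wt, and was lowest in wt 2. Pou2af1 averaged 2.30 ± 1.25 CPM across mutants and 2.43 ± 1.91 CPM across wt.

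Of 12 plasma cell markers, 7 were tested and 0 passed, with a median log2 fold change of -0.07, and the sum was 146 to 158 CPM in mutants and 143 to 146 CPM in wt. Most of that sum came from Sec11c, Txndc5 and Prdm1, which other cells also express, so it has little bearing on a small number of plasma cells. Derl3 was at 0 in all 6 libraries, Mzb1 had 0 counts in each mutant library and 1 count in each wt library, and Tnfrsf17 (BCMA) had 4 counts in wt 3 and 0 elsewhere. Fkbp11, a chaperone of secretory cells, had 0, 4 and 6 counts in mutants, against 4, 28 and 10 in wt, and Eaf2, a transcription elongation factor, had 0, 0 and 10 counts in mutants, against 3, 18 and 12 in wt. Both were highest in wt 2, where Igha had 40 counts, and the part of plasma cells in the Igha values was not tested.

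Markers of germinal centre B cells (6 of 8 tested, median -0.35) had 0 calls. At an unadjusted p below 0.05, 1 was higher (S1pr2) and 1 lower (Bcl6), against 3.51% and 3.22% of all tested genes. S1pr2 averaged 75.3 ± 1.29 CPM across mutants and 41.0 ± 2.08 CPM across wt (edgeR unadjusted p = 2.09e-05, adjusted p = 0.165). Bcl6 averaged 38.6 ± 2.04 CPM across mutants and 53.0 ± 3.41 CPM across wt (edgeR unadjusted p = 0.0052, adjusted p = 0.428). Both are also expressed by myeloid cells, and Rgs13 was at 0 in all 6 libraries. Follicular dendritic cell markers, which could also carry Cr2, had 3 tested of 5 in the table and 0 called. At an unadjusted p below 0.05, 1 was higher (Mfge8, 70.6 ± 9.46 CPM across mutants and 50.2 ± 13.6 CPM across wt), against 3.51% of all tested genes. Clu ran the other way, at 46.1 ± 1.30 CPM across mutants and 52.6 ± 1.74 CPM across wt. Cxcl13 had 8, 42 and 14 counts in mutants, against 8, 12 and 20 in wt. Fcamr had 43 counts in wt 1 and 0 elsewhere. Madcam1 was at 0 in all libraries. T cell markers summed to 30.0, 30.2 and 35.7 CPM in mutants, against 44.7, 26.9 and 48.1 CPM in wt, and NK cell markers to 31.3, 33.7 and 22.0 CPM in mutants, against 42.1, 23.5 and 40.6 CPM in wt. Both lists were thus highest in wt 1 and wt 3, the libraries high in Igha; 0 of 14 T cell and 0 of 7 NK cell markers tested passed, and their part in the Igha values was not tested.

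Epithelial and fibroblast markers had higher mean sums in mutants than in wt, without overlap for fibroblast and with overlap for epithelial markers. Epithelial markers summed to 675, 765 and 1145 CPM in mutants, against 460, 688 and 383 CPM in wt (13 tested, 0 called, 7 higher at an unadjusted p below 0.05, against 3.51% of all tested genes, median 0.85). Fibroblast markers summed to 502, 504 and 751 CPM in mutants, against 444, 364 and 422 CPM in wt (10 tested, 0 called, 5 higher unadjusted, against the same 3.51%, median 0.44). Alveolar macrophage markers summed to 411 to 490 CPM in mutants and 347 to 426 CPM in wt (12 tested, 0 called, 3 higher unadjusted, against the same 3.51%). Mutant 3 was highest in both the epithelial and the fibroblast list and lowest of the mutants in summed surface genes. The part of other cells in the Cr2 and surface values was not tested. Endothelial markers went the other way, at 1182 to 1412 CPM in mutants and 1307 to 1564 CPM in wt, with all 9 log2 fold changes negative. Dendritic cell markers summed to 39.4 to 51.9 CPM in mutants and 38.8 to 40.0 CPM in wt. Of 7 tested, 2 were positive and 5 negative, and 1 was higher unadjusted (Ccr7), against the same 3.51%. Ccr7 averaged 21.9 ± 6.01 CPM across mutants and 11.7 ± 3.77 CPM across wt (edgeR unadjusted p = 0.00809, adjusted p = 0.498). Platelet and red cell markers summed to 8.08 to 16.4 CPM in mutants and 8.51 to 11.9 CPM in wt. Mast cell and basophil markers summed to 83.7 to 106 CPM in mutants and 89.9 to 108 CPM in wt. In these 4 lists 0 genes passed.

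**Figure D5:**
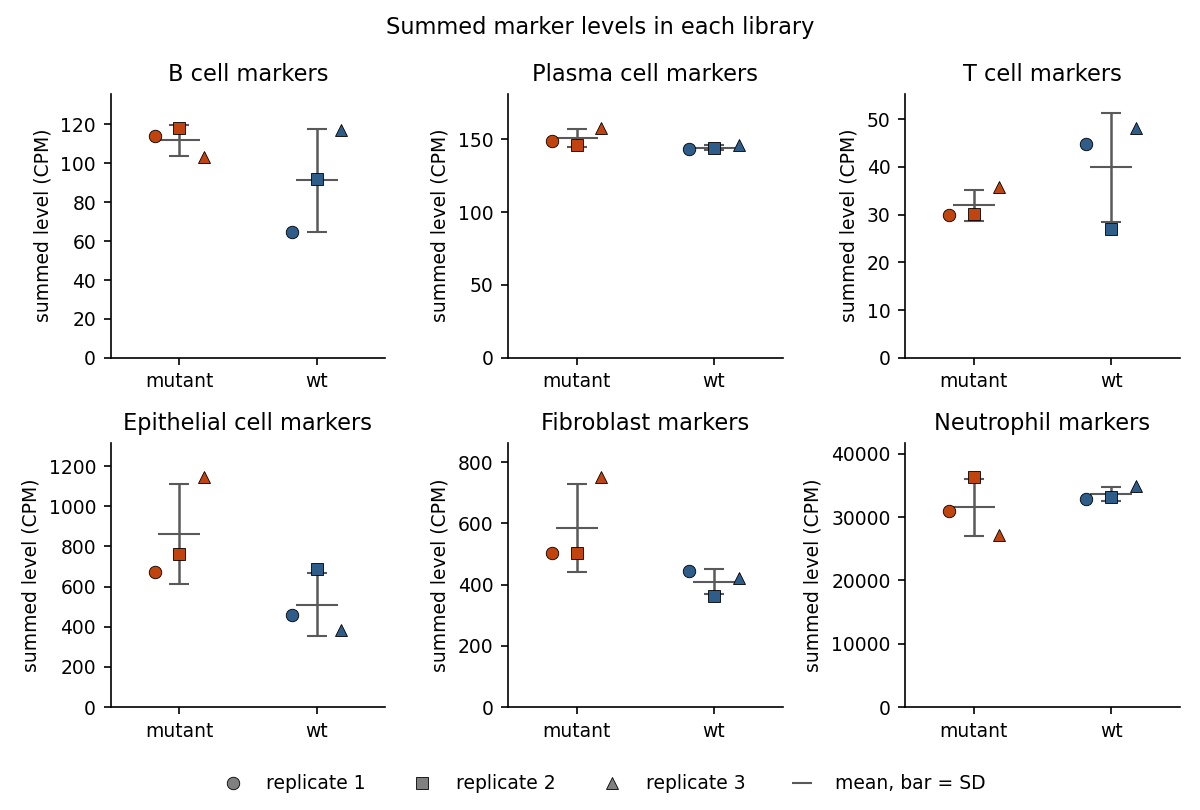
Summed level in CPM of 6 cell type marker lists in each library, with mutants on the left and wt on the right; points are libraries and bars show mean and SD. B cell markers are lowest in wt replicate 1, T cell markers are highest in wt replicates 1 and 3, and epithelial and fibroblast markers are highest in mutant replicate 3.

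Genes that act with the 9 were listed by role, and edgeR called 0 of them in either direction. Among B cell activating ligands and receptors (9 of 15 tested, 7 positive and 2 negative, median 0.42), the survival factor Tnfsf13b (BAFF), which neutrophils can make, averaged 31.8 ± 3.19 CPM across mutants and 41.2 ± 10.4 CPM across wt (adjusted p = 0.799). Cxcl12, which draws plasma cells to their niches, averaged 107 ± 3.22 CPM across mutants and 103 ± 12.4 CPM across wt. Among antibody receptors (8 of 11 tested, median 0.14), Fcgr3, an activating IgG receptor of myeloid cells, averaged 1042 ± 69.9 CPM across mutants and 1250 ± 62.3 CPM across wt. Fcgr3 was the 1 gene of the list lower at an unadjusted p below 0.05 (0.0134, edgeR adjusted p = 0.551), against 3.22% of all tested genes. Complement receptors other than Cr2 (9 of 10 tested, median -0.06) were led by C5ar1, at 2673 ± 94.4 CPM across mutants and 2394 ± 99.7 CPM across wt (adjusted p = 0.767).

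B cell receptor signalling genes were all 18 tested, with a median of -0.02. At an edgeR unadjusted p below 0.05, 1 was higher (Cd81) and 1 lower (Syk), against 3.51% and 3.22% of all tested genes. Many of them are shared with neutrophils: Syk, the kinase that Cd79a and Cd79b recruit and that also serves Fc receptors and integrins, averaged 806 ± 53.8 CPM across mutants and 979 ± 70.4 CPM across wt (unadjusted p = 0.0131, edgeR adjusted p = 0.551). Cd81, a tetraspanin that associates with Cr2, averaged 117 ± 13.8 CPM across mutants and 92.0 ± 5.08 CPM across wt (unadjusted p = 0.0167, edgeR adjusted p = 0.584). In the Ms4a family other than Ms4a1, 9 of 18 genes were tested and 6 were positive, with a median of 0.49; the most abundant, Ms4a6b, averaged 16.4 ± 5.25 CPM across mutants and 11.1 ± 1.40 CPM across wt. Of the antibody secretion machinery, 11 of 14 genes were tested, with a median of 0.15. Sdf2l1 and Hspa5, both chaperone system genes of the endoplasmic reticulum in all cells, were higher at an edgeR unadjusted p below 0.05 (0.0322 and 0.0396). Their adjusted p was 0.667 and 0.694, and 3.51% of all tested genes were higher at that unadjusted p.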

How the data were processed

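Counts per gene were deposited by the authors as raw counts for 6 libraries made from 2 ng of total RNA with the SMARTSeq v2 protocol, which is not strand-specific, and sequenced as 151-cycle read pairs, per the labels' protocols. STAR, featureCounts and GRCm38 are named per the submitters' processing notes; no source used here gives their versions, the strand setting or the annotation used for counting, so antisense reads cannot be separated. Of 55487 identifiers, 55094 matched GENCODE M21 exactly and 300 without version. From 71.7% to 73.7% of values between 1 and 20 were even in each library, so a count may be a mate rather than a pair, and counting intervals, which cover counting error only and take counts as independent, are then too narrow. PCR reads carry no molecular identifiers. No spike-in row was in the table.

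Genes passing edgeR's filterByExpr (minimum count 10; 15774 genes) were tested with edgeR 4.0.16 in R 4.3.3 (quasi-likelihood, TMM scaling, Benjamini-Hochberg at 0.05), with all 3 mutant and 3 wt libraries and no covariate. limma 3.58.1 (voom), DESeq2 1.42.0, other scalings, no filter and leaving out each library were the alternatives. Exon length is the length given for each gene with the deposited counts, and the annotation behind it is not given. The members and gene lists were chosen with earlier results of these data known. Named genes are the members, the leading V gene of each library and the genes most like the members. Of each list they are up to 4 genes averaging 1 CPM or more with the smallest p (those shown were drawn from these). Other V genes, markers at or near 0, Fkbp11, Eaf2, Pax5, Cd22, Pou2af1 and the leading gene of a list were named after their values were seen.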

Additional observations from a re-analysis of the deposited data

How the results depend on the processing

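The 9 fold changes were recomputed under 11 alternatives each (99 values): 91 kept both direction and side of the threshold, 7 turned sign and 1 newly passed, Igha without the filter on low counts (-3.74, adjusted p 0.00593). The signs that turned were of Igkc with limma-voom (0.0085), without mutant 1 (0.11) and without wt 3 (0.40), and of Iglc2 with limma-voom (0.15), without mutant 3 (0.09), without wt 1 (0.02) and without wt 3 (0.38); the cause was not tested. With 1 library left out, Igkc ran from -0.39 to 0.40 and Iglc2 from -0.49 to 0.38. Jchain kept its sign, from -2.78 with limma-voom to -0.06 without wt 3. Genes higher in mutants numbered 41 with no filter and 81 with DESeq2, and 0 to 2 with 1 library left out; genes lower numbered 29 with no filter and 74 with DESeq2, and 0 to 1 with 1 library left out. The ratio of summed surface genes was 1.33 to 1.73 and that of antibody genes 1.01 to 1.31 with 1 library left out. The median r of the 36 pairs, 0.25, was 0.37 on log2(CPM + 1), 0.37 on deviations from group means (an alternative chosen after seeing the data) and -0.0081 without the 2 farthest libraries. No paired analysis was possible because replicate numbers follow accession order and pair no libraries. Low counts limit the precision of Cr2, Iglc2, Jchain and Igha in mutants.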
